A study of Mus musculus with 6 samples.

Results

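Collagens and laminins are the main structural proteins that cells lay down outside themselves, and 40 genes for their chains were followed here on 6 bead arrays of differentiating mouse embryonic stem cells. The genes were taken by symbol alone, as every probe annotated to a collagen alpha chain or to a laminin alpha, beta or gamma chain, which gave 57 probes among 27495 and 40 genes among 13165. They fall into 16 genes for basement membrane chains (9 laminins, 5 collagen IV chains and the multiplexins Col15a1 and Col18a1), 17 for interstitial chains (7 fibrillar collagens, 4 collagen VI chains and 6 FACITs, the fibril-associated collagens), and 7 that belong to neither side. The laminin gene Lama1 and the fibrillar genes Col1a2 and Col3a1 were not analysed here.

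Basement membranes are thin sheets under epithelia and around muscle and vessels. Laminins, each a cross of an alpha, a beta and a gamma chain, assemble on the cell surface first, and a network of collagen IV, usually 2 alpha1 chains with 1 alpha2 chain, stabilises the sheet together with nidogens and perlecan. The early embryo makes such sheets under its primitive endoderm, and embryoid bodies do likewise. Interstitial collagens form the fibrils and microfilaments of connective tissue and are made above all by fibroblasts and other mesenchymal cells.

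The cells were of the J1 line of mouse embryonic stem cells, with no genetic change named in the labels. The Noggin arrays held cells given Noggin, a secreted protein that blocks bone morphogenetic proteins, at 150 ng/ml for 3 days in medium with leukaemia inhibitory factor (LIF), and then embryoid bodies sampled at day 2 and day 4. The mock arrays held untreated cells at days 0, 2 and 4. Both arms were trypsinised and moved to uncoated dishes without LIF to form embryoid bodies, and Noggin was taken away on the second day after that. The treatment label names Noggin on the mock arrays too, so the groups were taken from the source names, which separate them. The design text lists both untreated and Noggin-treated stem cells for the Noggin arm, so whether the day 0 Noggin array holds cells before or after the 3 days of treatment is not settled. Changes from day 0 to day 2 set embryoid bodies without LIF against stem cells with it, and time and culture cannot be told apart in them.

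By its labels the series asks which genes Noggin changes on the way to heart cells. Each of the 6 groups was 1 array. Values are the authors' log2 signals, normalised so that each array has the same distribution, with a median of 7.37 and a lowest value of 6.6. They still contain the background signal, so differences of dim probes are compressed. Of 19 pluripotency genes measured, Pou5f1, Sox2 and Nanog among them, all were above the median on at least 2 arrays. Their summed signals were 72106.8 and 70706.5 on the Noggin and mock arrays of day 0, 31543.3 against 36399.7 at day 2, and 12221.8 against 29975.8 at day 4. Such sums weigh bright genes most. From day 0 to day 2, 6 of the 19 genes passed the test described next as lower and 1 as higher. Their median log2 difference was -0.485. Over all probes 7.59% fell and 8.21% rose. Pou5f1 changed by 0.165 in this step and passed no test between days. A change between days was tested with limma on all 27495 probes, with day and treatment in 1 model. Its error comes from how the gap between the Noggin and mock arrays varies from day to day. Both arms thus stand in for replicates of a day, and a Noggin effect that differs by day is part of the error. Whether the arrays stand for separate cultures is not stated, and p-values then measure only the spread between these arrays. Noggin and mock on 1 day were compared without a test. Signals come from bulk RNA, in which fewer cells of a type and less RNA per cell cannot be told apart.

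Most chain genes were dim. Of the 57 probes, 19 were above the array median on 2 or more arrays, 33.3%, against 55.2% of all probes on the array. These stood for 17 genes, of which 8 were basement membrane chains, 6 interstitial chains and 3 others. Above the median on all 6 arrays were 9 genes, 7 of them on the basement membrane side (Lama5, Lamb1, Lamb2, Lamc1, Col4a1, Col4a2 and Col18a1) and 2 on the interstitial side (Col5a1 and Col6a2). The remaining 38 probes ranged from 6.76 to 7.54, and the most that any of them varied over the 6 arrays was 0.61. No detection values came with the arrays, so these dim genes can be called neither expressed nor absent. The same holds for Col6a2, which lay between 7.44 and 7.53, within the range of these dim probes.

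**Figure D1:**
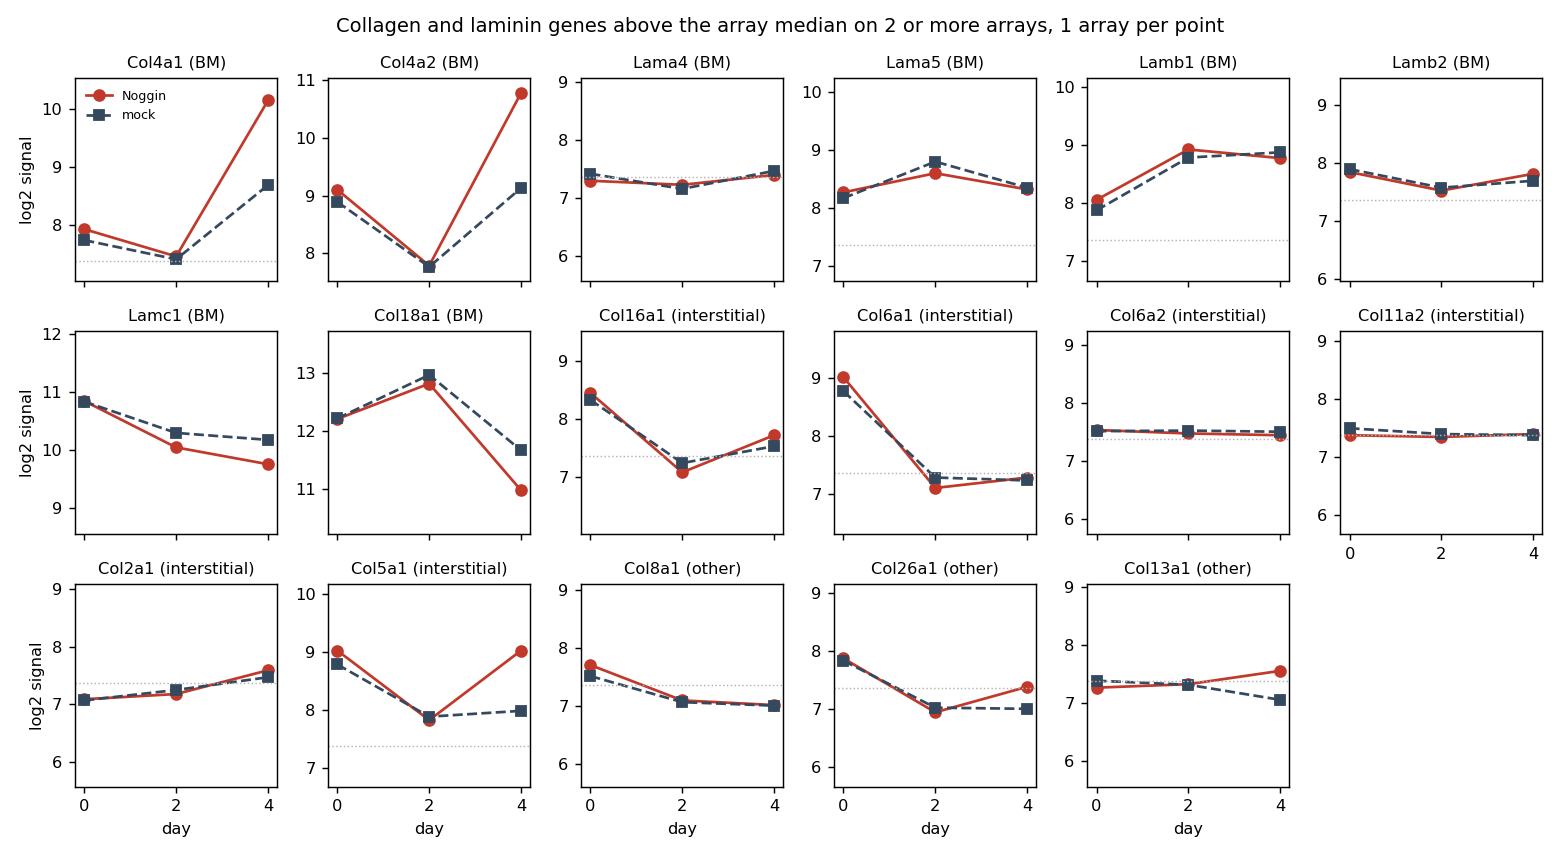
Log2 signal against day for the 17 chain genes above the array median on 2 or more arrays, each by its brightest probe. Circles with full lines are Noggin arrays, squares with broken lines are mock arrays, each point is 1 array, BM stands for basement membrane, and the dotted line is the array median of 7.37. Col4a1 and Col4a2 dip at day 2 and part at day 4 at 10.14 and 8.68, and 10.77 and 9.13, in Noggin and mock embryoid bodies. Col6a1 falls to the array median after day 0.

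Among the laminins, Lamb1 rose and Lamc1 fell as embryoid bodies formed. Lamc1 encodes the gamma1 chain, the gamma chain of most laminins. It had log2 signals of 10.84 and 10.83 on the Noggin and mock arrays of day 0, 10.04 against 10.29 at day 2, and 9.75 against 10.17 at day 4. Both arms were lower at every later day. The fall was 0.63-fold to day 2 (log2 difference -0.67, SE 0.112, limma adjusted p = 0.0115) and 0.55-fold to day 4 (-0.88, SE 0.112, limma adjusted p = 0.00332). Lamb1, for the beta1 chain found in the early laminins of the embryo, moved the other way. Its signals were 8.06 and 7.88 at day 0 in Noggin and mock cells, 8.93 against 8.79 at day 2, and 8.78 against 8.88 at day 4. The day 0 pair lay below the other 4 arrays. Lamb1 was 0.89 higher at day 2 than at day 0 (SE 0.0927, limma adjusted p = 0.00251) and stayed 0.86 above day 0 at day 4 (limma adjusted p = 0.00191).

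Lama5, for the alpha5 chain, peaked at day 2. It stood at 8.27 and 8.17 in Noggin and mock cells at day 0, 8.60 against 8.80 at day 2, and 8.32 against 8.35 at day 4. Its rise of 0.48 to day 2 (SE 0.0924, limma adjusted p = 0.019) and its fall of -0.365 from day 2 to day 4 (limma adjusted p = 0.0489) were both small. The second lies just inside the threshold and was lost under 6 of the alternative settings that keep all arrays and under every fit that left out 1 array. Lamb2, for the beta2 chain of muscle and kidney laminins, fell by 0.32 to day 2 (limma adjusted p = 0.0451). Its signals on the Noggin and mock arrays were 7.85 and 7.90 at day 0, 7.53 against 7.58 at day 2, and 7.82 against 7.70 at day 4.

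The other 5 laminin genes were at or near the array median throughout. Lamb3, whose beta3 chain belongs to the laminin of skin, was below the median on all arrays but 1, which equalled it. It stood at 7.13 and 7.17 at day 0 in Noggin and mock cells, 6.76 against 6.76 at day 2, and 7.37 against 7.19 at day 4. It passed the test for a fall to day 2 (-0.39, limma adjusted p = 0.0281) and a rise to day 4 (0.52, limma adjusted p = 0.0125), at a signal no higher than the array median. Lama4, a chain of vessel laminins, ranged from 7.16 to 7.47 at its brightest probe. Lama2, Lama3 and Lamc3 stayed between 6.94 and 7.23 at every probe, and none of these 4 genes passed a test between days.

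Collagen IV gave the largest changes among the basement membrane chains, and they were carried by Col4a1 and Col4a2. These encode the alpha1 and alpha2 chains that build the collagen IV of nearly every basement membrane. Col4a2 stood at 9.10 and 8.89 on the Noggin and mock arrays of day 0, 7.79 against 7.77 at day 2, and 10.77 against 9.13 at day 4. Col4a1 stood at 7.92 and 7.73, 7.45 and 7.40, and 10.14 and 8.68 on the same arrays. Both genes were lowest on the 2 arrays of day 2 and highest on the Noggin array of day 4, and the mock array of day 4 also lay above both day 2 arrays.

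From day 2 to day 4, Col4a2 rose 4.5-fold (log2 difference 2.17, SE 0.364, limma adjusted p = 0.0138) and Col4a1 rose 3.96-fold (1.99, SE 0.321, limma adjusted p = 0.0125). The rise differed between the arms. On the Noggin arrays it was 2.98 for Col4a2 and 2.69 for Col4a1, against 1.36 and 1.28 on the mock arrays, and with 1 array each this gap was not tested. The SE of both genes holds this gap, since the model takes 1 treatment effect for all days. Without the Noggin array of day 4, limma called no chain gene between days 2 and 4, and the estimates became 1.41 for Col4a2 and 1.32 for Col4a1. The dip from day 0 to day 2 did not pass for Col4a2 (-1.22, SE 0.364, limma adjusted p = 0.0784) or Col4a1 (-0.40, limma adjusted p = 0.523), though that of Col4a2 passed after background correction (-1.50, limma adjusted p = 0.0235 with normexp, offset 50). Against day 0, Col4a1 was 3-fold higher at day 4 (1.59, limma adjusted p = 0.0169, or 0.92 without the Noggin array of day 4), and Col4a2 did not pass (0.96, limma adjusted p = 0.125).

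The Col4a1 and Col4a2 genes lie head to head, on opposite strands. Their RefSeq start sites are 21 bases apart on chromosome 8 of the build GRCm38.p6, and the windows of 250 bases before to 50 after each start share 78 bases. The windows are shown because both genes moved together, and capitals mark matches, on either strand, to 4 short motifs: the CCAAT box (CCAAT), the GC box (GGGCGG), the CTC box (CCCTCCCC) and a GATA site (AGATAA). The lines below give Col4a1 at chr8:11312777-11313076 on the minus strand and Col4a2 at chr8:11312555-11312854 on the plus strand, 5′ to 3′.
Col4a1: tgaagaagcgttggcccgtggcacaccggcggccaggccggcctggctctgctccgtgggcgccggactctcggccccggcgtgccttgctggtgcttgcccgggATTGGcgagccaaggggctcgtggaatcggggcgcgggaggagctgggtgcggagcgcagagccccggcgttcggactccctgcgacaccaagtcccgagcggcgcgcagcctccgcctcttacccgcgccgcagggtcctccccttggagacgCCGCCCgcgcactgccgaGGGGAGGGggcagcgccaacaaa
Col4a2: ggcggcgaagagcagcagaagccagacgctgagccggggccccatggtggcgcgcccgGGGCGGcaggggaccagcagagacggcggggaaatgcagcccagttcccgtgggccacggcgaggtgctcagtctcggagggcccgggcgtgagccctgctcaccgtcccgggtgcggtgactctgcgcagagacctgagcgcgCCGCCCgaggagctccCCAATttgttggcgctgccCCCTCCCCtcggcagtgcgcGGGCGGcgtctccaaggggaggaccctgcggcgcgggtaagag
The Col4a1 window holds 1 CCAAT box, 1 GC box and 1 CTC box, and the Col4a2 window 1 CCAAT box, 3 GC boxes and 1 CTC box. Of these, 1 GC box and 1 CTC box lie in the shared bases and so count in both windows. Neither window has a GATA site in these letters. Over all 32851 RefSeq windows, 37.4% hold a CCAAT box, 35.7% a GC box, 10.8% a CTC box and 11.2% a GATA site. The 33 windows found for 29 of the 40 chain genes hold them in 36.4%, 63.6%, 30.3% and 6.06%. GC content is 74.0% and 73.7% in the Col4a1 and Col4a2 windows, against a median of 52.7% over all windows, and GC-rich letters favour the GC box and the CTC box.

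The remaining collagen IV genes were dim. Col4a5 and Col4a6, which encode the alpha5 and alpha6 chains and also lie head to head, on the X chromosome, were below the array median on every array. Col4a5 stood at 6.99 and 6.93 at day 0 in Noggin and mock cells, 7.10 against 7.04 at day 2, and 7.29 against 7.20 at day 4, a difference of 0.285 from day 0 to day 4 that passed the test (limma adjusted p = 0.0325). Col4a6 ranged from 6.80 to 7.14, and Col4a4, for a chain of the kidney filter, from 7.05 to 7.13.

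Col18a1 ran opposite to Col4a1 and Col4a2. It encodes the core protein of collagen XVIII, a heparan sulphate proteoglycan of basement membranes whose end fragment is endostatin. Its bright probe gave 12.20 and 12.21 in Noggin and mock cells at day 0, 12.81 against 12.96 at day 2, and 10.97 against 11.66 at day 4. Day 2 was the highest pair and day 4 the lowest, without overlap. Between days 2 and 4 Col18a1 fell 0.34-fold (-1.57, SE 0.161, limma adjusted p = 0.00375), and it was 0.54-fold of its day 0 level at day 4 (-0.89, limma adjusted p = 0.0113). Without the Noggin array of day 4 the second difference was -0.585 and missed the threshold (limma adjusted p = 0.0513). Its rise of 0.68 to day 2 (SE 0.161, limma adjusted p = 0.0374) missed the threshold under 3 alternatives that keep all arrays, with differences of 0.68 to 0.80, and without any 1 array of day 0 or day 2. A dim probe of Col18a1 ranged from 6.85 to 7.26, below the array median on every array. Col15a1, for the related collagen XV, stayed between 6.80 and 7.11.

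Among the fibrillar collagens only Col5a1 was bright, and Col2a1 rose at a low signal. Col5a1 encodes the alpha1 chain of collagen V, which sets the width of collagen fibrils. Its signals were 9.02 and 8.78 in Noggin and mock cells at day 0, 7.82 against 7.88 at day 2, and 9.02 against 7.98 at day 4. The 2 arrays of day 2 and the mock array of day 4 lay low, and the Noggin array of day 4 was back at the day 0 level. It fell 0.48-fold to day 2 (-1.05, SE 0.24, limma adjusted p = 0.0335). The difference from day 2 to day 4 was 1.20 on the Noggin arrays and 0.10 on the mock arrays, and the mean of both did not pass (0.65, SE 0.24).

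The Col5a1 window lies at chr2:27886175-27886474 on the plus strand of GRCm38.p6 and is shown with the same motifs in capitals, beside that of Col6a1, at chr10:76725995-76726294 on the minus strand, the interstitial gene that fell most.
Col5a1: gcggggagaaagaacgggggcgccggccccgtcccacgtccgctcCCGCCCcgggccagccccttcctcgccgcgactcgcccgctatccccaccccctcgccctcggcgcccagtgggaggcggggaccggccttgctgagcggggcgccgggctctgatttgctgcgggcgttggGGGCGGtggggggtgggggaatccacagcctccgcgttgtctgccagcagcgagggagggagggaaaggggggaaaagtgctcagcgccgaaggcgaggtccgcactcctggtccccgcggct
Col6a1: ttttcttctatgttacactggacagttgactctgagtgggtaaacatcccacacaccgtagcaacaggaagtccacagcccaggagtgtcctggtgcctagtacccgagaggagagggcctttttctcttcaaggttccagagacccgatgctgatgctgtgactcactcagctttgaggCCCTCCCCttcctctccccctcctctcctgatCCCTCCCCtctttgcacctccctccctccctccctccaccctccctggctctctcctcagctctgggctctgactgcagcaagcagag
The Col5a1 window holds 2 GC boxes and the Col6a1 window 2 CTC boxes, and neither holds a CCAAT box or a GATA site in these letters.

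Col2a1, for the collagen of cartilage, had 3 probes, of which 2 crossed the array median at day 4. The brightest stood at 7.09 and 7.07 at day 0 in Noggin and mock cells, 7.18 against 7.25 at day 2, and 7.59 against 7.47 at day 4. It was 0.45 higher at day 4 than at day 0 (SE 0.0795, limma adjusted p = 0.0105), and the second probe rose by 0.57 (SE 0.088, limma adjusted p = 0.00641). The third probe, between 7.04 and 7.23, did not pass, so the probes disagree. Col1a1, a chain of collagen I, the most abundant collagen of connective tissue, stood at 7.45 and 7.27 at day 0 in Noggin and mock cells, 6.99 against 7.07 at day 2, and 7.04 against 7.14 at day 4. Only the day 0 Noggin array put it above the median, and no test between days passed. Col5a2, Col11a1, Col11a2 and Col27a1 lay between 6.80 and 7.49 at every probe with no call.

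Collagen VI, which forms beaded microfilaments around mesenchymal cells, was marked by a fall of Col6a1, seen alike at both probes. The brighter one gave 9.02 and 8.78 in Noggin and mock cells at day 0, 7.11 against 7.29 at day 2, and 7.29 against 7.24 at day 4. The dimmer one gave 8.83 and 8.56, 7.27 and 7.26, and 7.36 and 7.08. Every embryoid body array was at or below the array median and both stem cell arrays were far above it. By day 2 the first probe fell 0.31-fold (-1.70, SE 0.11, limma adjusted p = 0.000754) and the second fell by 1.43 (SE 0.0931, limma adjusted p = 0.000766). Since day 2 lies near the array median and background was not removed, these sizes are compressed: after background correction (normexp, offset 50) the first probe fell by 2.28. Its partner gene Col6a2, for the alpha2 chain, passed no test between days, with 7.53 and 7.51 at day 0, 7.47 against 7.52 at day 2, and 7.44 against 7.50 at day 4 in Noggin and mock samples. These values lie near the array median of 7.37, so Col6a2 can be called neither expressed nor absent. Col6a4 and Col6a6 ranged from 6.92 to 7.17.

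Of the FACITs, Col16a1 alone was bright. Collagen XVI associates with fibrils and microfibrils. Col16a1 stood at 8.45 and 8.33 in Noggin and mock cells at day 0, 7.08 against 7.24 at day 2, and 7.72 against 7.53 at day 4. It fell 0.43-fold to day 2 (-1.23, SE 0.102, limma adjusted p = 0.00139) and rose by 0.465 from day 2 to day 4 (limma adjusted p = 0.0318). Both arms moved in the same direction at each step. Col9a1, Col9a2, Col9a3, Col12a1 and Col14a1 did not pass, at values from 6.91 to 7.37.

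Outside both sides, Col8a1 and Col26a1 fell after day 0. Col8a1, for a short-chain collagen of vessel walls and Descemet's membrane, fell by 0.53 to day 2 (SE 0.0803, limma adjusted p = 0.00835), with 7.71 and 7.52 at day 0, 7.10 against 7.07 at day 2, and 7.02 against 7.01 at day 4 in Noggin and mock samples. Col26a1 gave 7.88 and 7.84, 6.95 and 7.03, and 7.39 and 7.01 on the same arrays, and fell by 0.87 to day 2 (SE 0.119, limma adjusted p = 0.00593). The transmembrane collagen gene Col13a1 stood at 7.26 and 7.38 at day 0 in Noggin and mock cells, 7.32 against 7.31 at day 2, and 7.55 against 7.05 at day 4. It was highest on the Noggin array of day 4 and lowest on the mock array of the same day. Col7a1, for the anchoring fibrils of skin, reached 7.54 on the Noggin array of day 4 and otherwise lay between 7.05 and 7.22. Col17a1, Col25a1 and Col28a1 stayed between 6.96 and 7.25.

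**Figure D2:**
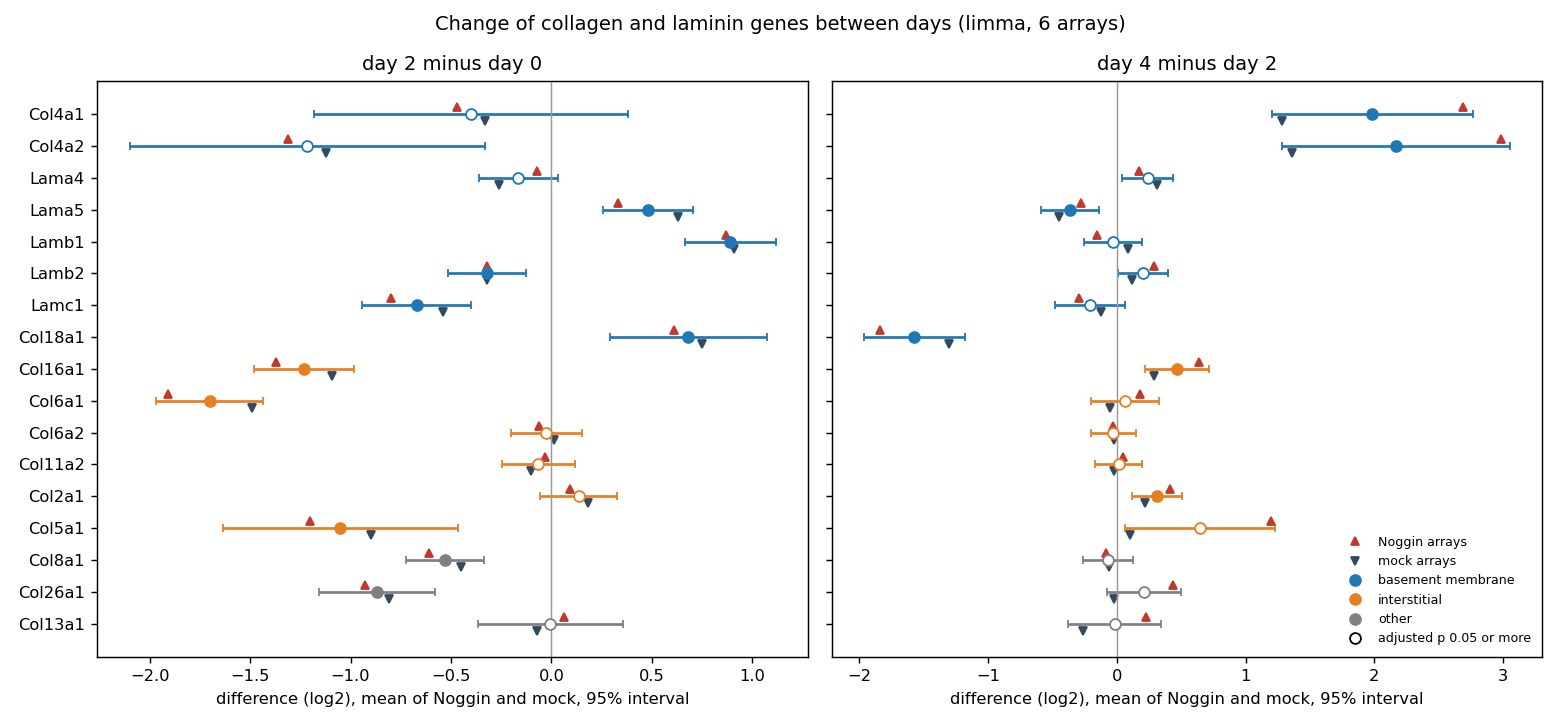
Log2 difference between days for the same 17 genes, day 2 minus day 0 on the left and day 4 minus day 2 on the right, with the 95% interval of the limma model over 6 arrays. Large points are the mean of both arms, filled where the adjusted p was under 0.05, up triangles are the Noggin arrays and down triangles the mock arrays. From day 0 to day 2 the interstitial genes Col6a1, Col16a1 and Col5a1 lie at -1.70, -1.23 and -1.05. From day 2 to day 4 Col4a2 and Col4a1 lie at 2.17 and 1.99. Col6a1 and Col8a1 are among the 17 only through their day 0 arrays, and Col2a1 only through its day 4 arrays.

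Set side by side, the interstitial chains that passed the test fell from day 0 to day 2, while basement membrane chains went both ways. From day 0 to day 2, 0 of 25 interstitial probes rose and 4 fell, for the genes Col5a1, Col6a1 and Col16a1. On the basement membrane side 3 of 22 probes rose (Lama5, Lamb1, Col18a1) and 3 fell (Lamb2, Lamb3, Lamc1). Over all probes 8.21% rose and 7.59% fell, beside 3 and 9 of the 57 chain probes. Background correction with a normexp offset of 16 ended the calls of Lama5, Lamb2, Lamc1, Col5a1 and Col18a1 in this contrast, and median scaling those of Lamb2, Lamb3 and Col18a1.

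At day 4 against day 0, 3 basement membrane probes rose (Col4a1, Col4a5, Lamb1) and 2 fell (Lamc1, Col18a1), while 2 interstitial probes rose, both of Col2a1, and 3 fell, of Col6a1 and Col16a1. In all 5 of 57 probes rose and 7 fell, against 11.3% and 11.0% of all probes, which is near the background. The chain probes were more often dim than all probes, however. Among probes above the array median on 2 or more arrays, 11 of 19 chain probes were called in this contrast, beside 5859 of all 15168. That filter keeps some chain genes only through the days on which they were high, and the shares were not tested. From day 2 to day 4, 3 basement membrane probes rose (Col4a1, Col4a2, Lamb3) and 2 fell (Lama5, Col18a1). On the interstitial side 2 rose (Col2a1, Col16a1) and 0 fell. That made 5 of 57 rising and 2 falling, against 7.27% and 7.51% of all probes.

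Over genes by their brightest probe, the median difference was close to 0 on both sides, and most members were dim. Between days 0 and 2 it was -0.0475 for 16 basement membrane genes and -0.025 for 17 interstitial genes, against -0.005 for all genes. From day 2 to day 4 it was 0.03 on both sides. The extremes were farther apart, from -1.57 to 2.17 on the basement membrane side and from -0.26 to 0.65 on the interstitial side. No difference between the sides was tested. Leaving out any 1 array of day 0 or day 2 left limma with 0 calls among all 27495 probes in the contrast of those days. Without either array of day 4, 13 chain probes were called in it, 11 of them among the 12 called with all 6 arrays, and Lama5 was no longer called.

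Over the step at which Col5a1, Col6a1 and Col16a1 fell, markers of fibroblasts, the cells that often serve as feeders for stem cells, also changed. Of 15 such genes measured, 8 fell from day 0 to day 2 and 1, Cxcl12, rose, against 7.59% and 8.21% of all probes, with a median difference of -0.94. Dcn, which encodes the proteoglycan decorin, had 11.07 and 10.56 at day 0 in Noggin and mock cells, 8.45 against 8.03 at day 2, and 6.83 against 7.26 at day 4. Thy1 fell by 0.98 (limma adjusted p = 0.00246) and the tenascin gene Tnc fell by 1.55 (limma adjusted p = 0.000779). Summed over the list, the normalised signal was 11828.8 and 10670.7 on the Noggin and mock arrays of day 0, 4823.1 against 5038.7 at day 2, and 6382.9 against 6601.9 at day 4. From day 2 to day 4, 2 genes of the list passed as rising and 4 as falling, Dcn and Timp1 among the latter. The 2 were Lgals1, up by 1.84 (limma adjusted p = 0.000769), and Fstl1, up by 1.055 (limma adjusted p = 0.00788). Both were among the 8 that fell to day 2. Fbln5, Postn and Prrx1 were at or below the array median on every array. The labels name no feeder layer, and the part of these cells in the fall of Col5a1, Col6a1, Col16a1 and Col8a1 was not tested.

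Over the step from day 2 to day 4, at which Col4a1 and Col4a2 rose, 6 of 19 endoderm markers rose and 1 fell, against 7.27% and 7.51% of all probes, with the primitive endoderm factor gene Gata6 up by 3.00 (limma adjusted p = 0.000848), Gata4 by 1.23 (limma adjusted p = 0.0168) and Foxa2 by 1.22 (limma adjusted p = 0.00195). The median of the list was 0.30, against -0.005 for all genes. The endocytic receptor gene Lrp2 fell by 1.09 (limma adjusted p = 0.0234). Pdgfra at 1.38, Pth1r at 0.565, Plat at 0.32, Thbd at 0.30 and Dab2 at 0.215 did not pass in this step. Against day 0, 6 genes of the list were higher at day 4 and 3 were lower by the same test. The lower ones were Thbd at -2.105, Apoe at -1.03 and Tfpi at -0.96. Summed signals were 7876.8 and 7708.2 on the Noggin and mock arrays at day 0, 5465.5 against 5760.7 at day 2, and 8339.7 against 7682.1 at day 4, and Afp, Apob, Cubn and Stra6 were at or below the array median throughout. Of 13 mesoderm markers 3 rose over the same step and 0 fell, with a median of 1.38. These were Mesp1 at 3.43 (limma adjusted p = 0.0424), Eomes at 2.09 (limma adjusted p = 0.00753) and Etv2 at 1.95 (limma adjusted p = 0.00489). The part of endoderm or mesoderm cells in the rise of Col4a1 and Col4a2 was not tested.

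Between Noggin and mock, no chain gene was 2-fold apart at days 0 and 2, and 3 were at day 4. At day 0 the 40 genes lay between -0.19 and 0.24 (Noggin minus mock, log2), with a median of 0.05 against 0.0 for all 13165 genes, and 0 reached 2-fold, as for 0.0% of all genes. The interstitial side was higher for 15 of 17 genes with a median of 0.08, led by Col5a1 and Col6a1 at 0.24 each, and the basement membrane side for 9 of 16 with a median of 0.03. Over all genes the SD of this difference was 0.1, and a difference of 0.0 ranked 6493 from the top. Of the 17 interstitial genes, 6 were above the array median on 2 or more arrays, and the others were dim. By the mean over all probes of a gene, Col2a1 at -0.0167 and Col9a1 at -0.065 were lower, and Col5a2 was 0.015 in place of 0.21. Fibroblast markers were higher on the Noggin array of day 0 for 11 of 15 genes, with a median of 0.13, and their part was not tested.

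At day 2 the chain genes lay between -0.25 and 0.17, with a median of -0.05, and 0 reached 2-fold, against 0.0076% of all genes. The lowest was Lamc1 and the highest Col6a4, which is dim. Interstitial chains were then lower on the Noggin array for 13 of 17 genes, with a median of -0.05, opposite to day 0. Over all 13165 genes the median was -0.01, and a difference of 0.0 ranked 5968 from the top. Of the 17 interstitial genes, 6 were above the array median on 2 or more arrays, and the others were dim. The chain differences of this day are of the size of the spread over all genes, whose SD was 0.142.

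At day 4, Col4a2, Col4a1 and Col5a1 were more than 2-fold higher in Noggin embryoid bodies, 3 of 40 genes, against 0.684% of all genes higher by this much and 0.653% lower. No chain gene was 2-fold lower. Col4a2 differed 3.12-fold (log2 difference 1.64), with array signals before normalisation of 1650.4 on the Noggin array and 546.9 on the mock array. Col4a1 differed 2.75-fold (1.46), from signals of 1065.2 and 400.1. Among 13165 genes their differences ranked 26 and 35 from the top. Col5a1 differed 2.06-fold (1.04), from 501.6 and 242.3, and at 1.97-fold fell short of 2-fold when arrays were scaled by their medians.

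Of the basement membrane genes 10 of 16 were higher on the Noggin array that day and 6 lower, Col18a1 and Lamc1 the most. Col18a1 was 0.62-fold in Noggin embryoid bodies (-0.69), with 1888.6 against 3156.3 before normalisation, and Lamc1 was 0.75-fold (-0.42), with 807.2 against 1131.3. Basement membrane genes thus lay at both ends of the 40 genes, with Col4a2 and Col4a1 highest and Col18a1 lowest. The dim genes Col4a4, Col4a5 and Col4a6 lay at -0.04, 0.09 and 0.13. Lamb1 at -0.10, Lama5 at -0.03 and Lamb2 at 0.12 differed by less than the SD of 0.283 over all genes, as did Col6a1 at 0.05, Col16a1 at 0.19 and Col2a1 at 0.12. Medians were 0.095 for the basement membrane side, 0.02 for the interstitial side, and 0.02 for all genes.

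**Figure D3:**
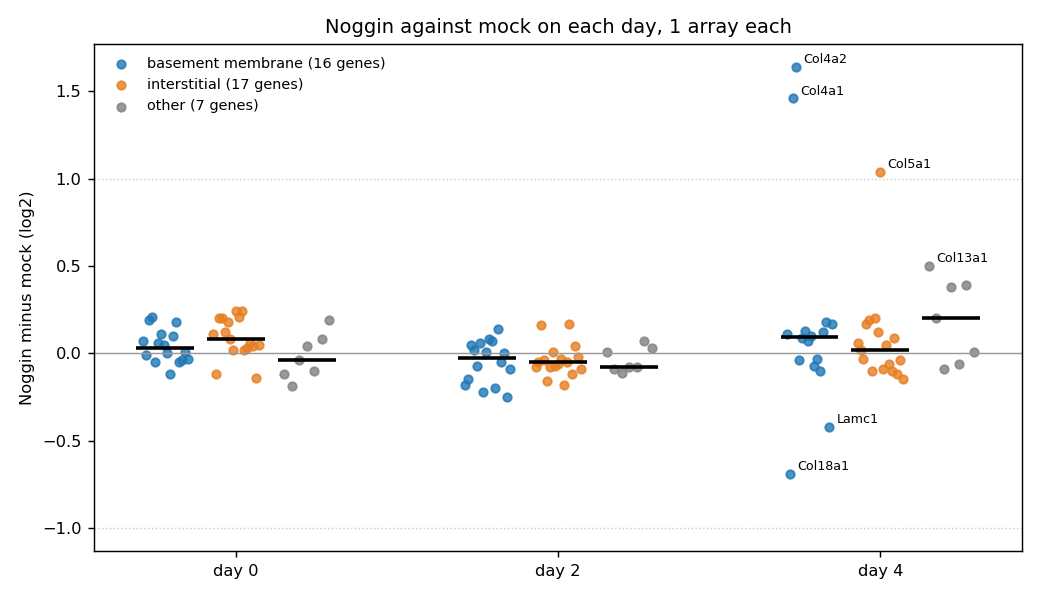
Noggin minus mock log2 difference of all 40 chain genes on days 0, 2 and 4, each point 1 gene by its brightest probe and 1 array per arm, with short bars for the median of each side and dotted lines at 2-fold. Genes beyond 0.4 are named. At day 4, Col4a2, Col4a1 and Col5a1 lie above the 2-fold line and Col18a1 is lowest at -0.69.

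Averaged over the 3 days, no chain gene passed the test of Noggin against mock. limma called 0 of 57 chain probes and 0.0% of all 27495 probes, with a smallest adjusted p of 0.975. The model takes 1 treatment effect for all days, so a difference that varies by day adds to the error of this test. The test therefore cannot decide whether Noggin and mock differed on day 4 alone. At an unadjusted p under 0.05, 1 of 57 chain probes passed, against 3.36% of all probes. Col4a2 averaged 0.62 and Col4a1 0.57, and most of this came from day 4, since the differences at days 0 and 2 were 0.21 and 0.02 for Col4a2 and 0.19 and 0.05 for Col4a1.

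Mesoderm and pluripotency markers differed on the same pair of day 4 arrays. Of 13 mesoderm genes measured, 12 were higher in Noggin embryoid bodies and 10 of them 2-fold or more, with a median of 1.60 and summed signals of 16568.3 against 4777. Mesp2 and Msgn1 were at or below the array median throughout. All 19 pluripotency genes were lower, 13 of them 2-fold or more, with a median of -1.16. Over all genes 0.684% were higher and 0.653% lower by 2-fold or more, with a median of 0.02. Endoderm markers were split, with 7 higher and 11 lower and a median of -0.06, Pdgfra, which is also in the mesoderm list, at 1.76, Gata4 at 0.88 and Gata6 at 0.67 against Lrp2 at -0.85. Fibroblast markers were higher for 6 of 15 and lower for 8, with a median of -0.01. The part of these cell types in the difference of Col4a1, Col4a2 and Col5a1 was not tested.

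Among genes whose products work on collagen chains before and after secretion, Serpinh1 had the profile of Col4a1 and Col4a2 and Lox that of Col6a1. Serpinh1, which encodes the collagen chaperone HSP47, stood at 10.33 and 10.31 in Noggin and mock cells at day 0, 9.14 against 9.20 at day 2, and 12.17 against 11.44 at day 4. This is the order seen for Col4a1 and Col4a2, lowest at day 2 and highest on the Noggin array of day 4. It rose by 2.64 from day 2 to day 4 (limma adjusted p = 0.00159), and Fkbp14, for a folding enzyme of the endoplasmic reticulum, rose by 0.87 (limma adjusted p = 0.00321). In contrast Lox, for the lysyl oxidase that crosslinks fibrils, had 9.36 and 9.16 at day 0, 7.20 against 7.33 at day 2, and 6.95 against 6.95 at day 4 in Noggin and mock samples. Lox fell by 2.00 to day 2 (limma adjusted p = 0.000435), Loxl1 fell by 1.08 (limma adjusted p = 0.00166) and Pcolce, for an enhancer of procollagen processing, fell by 0.86 (limma adjusted p = 0.00176).

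Over the 28 processing genes measured, 0 rose and 5 fell from day 0 to day 2, with a median of -0.12. From day 2 to day 4, 2 rose and 2 fell, with a median of 0.03. Over all probes 8.21% rose and 7.59% fell in the first step, and 7.27% and 7.51% in the second, so the counts of the second step lie near the background. At day 4, 19 were higher in Noggin embryoid bodies and 8 lower, with a median of 0.115 against 0.02 for all genes. Serpinh1 at 0.73, the prolyl hydroxylase gene P4ha1 at 0.48 and the cyclophilin gene Ppib at 0.42 were the highest, Pcolce2 at -0.31 was the lowest, and none reached 2-fold.

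Of 14 partners of laminin and collagen IV measured, 0 rose and 4 fell from day 0 to day 2, with a median difference of -0.13, against 8.21% and 7.59% of all probes. The nidogen gene Nid1, whose product links laminin with collagen IV, fell by 1.24 (limma adjusted p = 0.00265), the perlecan gene Hspg2 fell by 1.01 (limma adjusted p = 0.0162), Agrn, for agrin, fell by 0.86 (limma adjusted p = 0.0492), and Fbln2, for fibulin-2, fell by 2.31 (limma adjusted p = 0.00765). From day 2 to day 4, Agrn rose by 0.89 (limma adjusted p = 0.0463) and Smoc1 fell by 0.91 (limma adjusted p = 0.0104). At day 4, 9 of the 14 were higher in Noggin embryoid bodies, with a median of 0.12 and with Fbln2 at 1.52, Fbln1 at 0.93, Hspg2 at 0.61 and Agrn at 0.59. Nid2 at -0.51 and Smoc1 at -0.55 were lower.

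Among 11 receptors for collagen and laminin, 2 rose and 0 fell from day 0 to day 2, and 1 rose and 2 fell from day 2 to day 4, with medians of -0.005 and -0.035. Over all probes 8.21% rose and 7.59% fell in the first step, and 7.27% and 7.51% in the second. With 11 genes the counts are small, and they were not tested against these shares. Itga3, for a subunit of a laminin receptor, rose by 0.97 to day 2 (limma adjusted p = 0.0122), and Mrc2, for an uptake receptor of collagen, by 0.93 (limma adjusted p = 0.00144). Itgb1, for the beta1 subunit shared by most of these receptors, rose by 0.78 from day 2 to day 4 (limma adjusted p = 0.00786), and Itga6, for the alpha6 subunit that binds laminin, fell by 0.60 (limma adjusted p = 0.0102). The discoidin receptor gene Ddr1 was 0.85 higher at day 4 than at day 0 (limma adjusted p = 0.0039). Noggin minus mock at day 4 ran from -0.46 for Itga3 to 0.30 for Mrc2, with a median of 0.07.

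**Figure D4:**
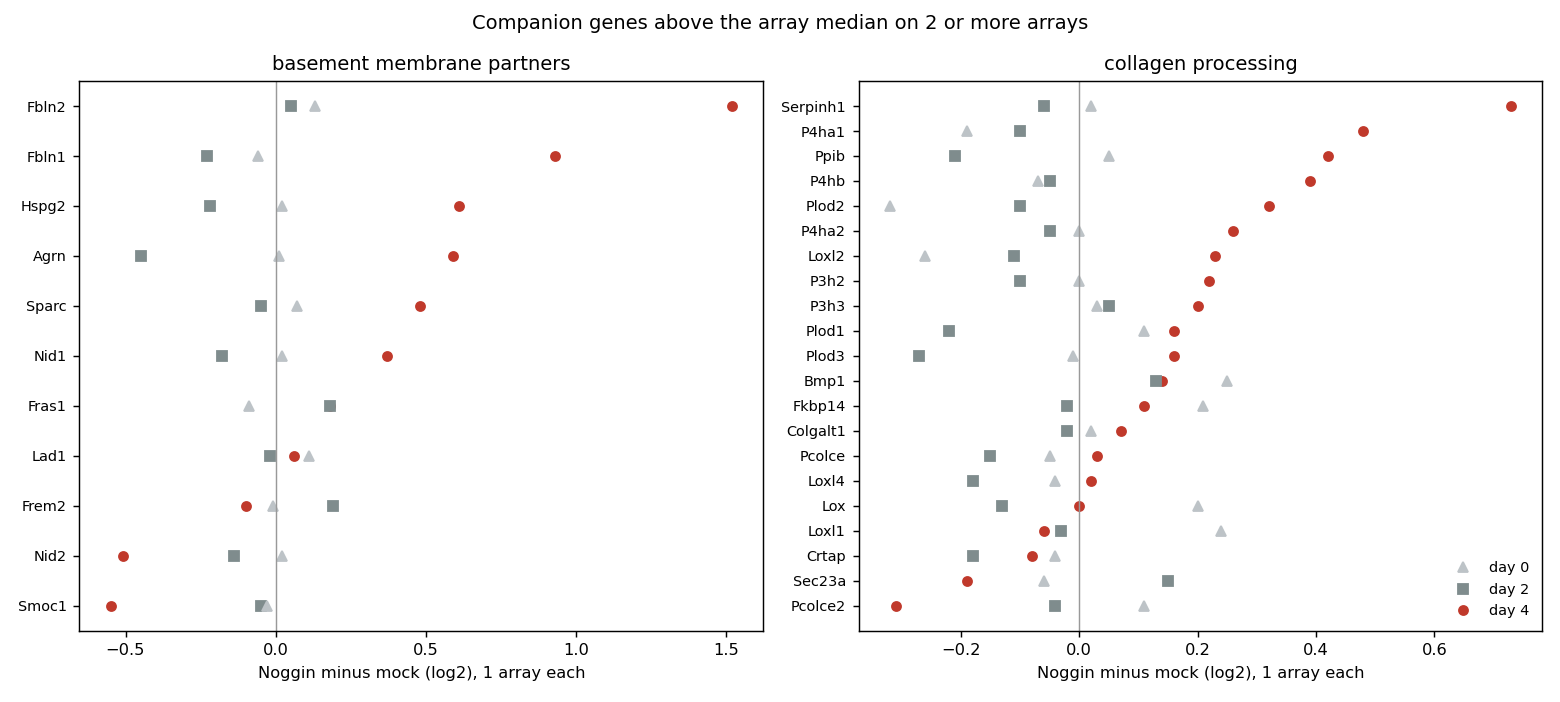
Noggin minus mock log2 difference, with 1 array per arm, for partners of the basement membrane (left) and genes of collagen processing (right) above the array median on 2 or more arrays. Triangles are day 0, squares day 2 and circles day 4. Fbln2 at 1.52 and Serpinh1 at 0.73 are highest at day 4, and Smoc1 at -0.55 and Pcolce2 at -0.31 are lowest.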

How the data were processed

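Total RNA was extracted with Trizol and hybridised as biotin-labelled cRNA to mouse bead arrays, per the labels' protocols, with 1 array for each of 6 groups. The deposited array tables hold signal intensity per probe, with medians from 152 to 176.55 and no background subtraction seen in the values. The deposited table of the series holds log2 values, which equal the quantile-normalised log2 intensities within 0.006 for 27491 of 27496 probes. The scanner software is not given in the sources used here. Depth does not apply to arrays, and their number limits the precision.

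Symbols came from the platform annotation: 19420 probes had 1 symbol, 6 had several and 8069 had none. All 57 member probes matched a RefSeq symbol (GRCm38.p6), and each gene was taken by its probe with the highest mean. limma 3.58.1 in R 4.3.3 was fitted to all 27495 probes without a filter, with day and treatment as additive terms (4 coefficients, 2 residual degrees of freedom, eBayes prior of 4.16), Benjamini-Hochberg adjustment over all probes and a threshold of 0.05. The script was tested on simulated data. Noggin and mock on 1 day were compared as a difference of 2 arrays, counted from 2-fold. Promoter windows came from RefSeq (GRCm38.p6), for 29 of 40 genes. Alternatives were normexp with offsets of 50 and 16, median scaling, filters on dim probes, other model terms, a variance trend, the mean over a gene's probes, and leaving out each array.

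Members, chain classes and companion lists were chosen with earlier results of these data known. Named are members past a threshold, all laminin, collagen IV, fibrillar and collagen VI genes, and the extremes of each companion list. Other genes named were picked after their values were seen.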

Additional observations from a re-analysis of the deposited data

Results flagged for a closer look

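Col13a1, a transmembrane collagen gene, moved in opposite directions on the Noggin and mock arrays. From day 0 to day 4 its log2 signal changed by 0.29 on the Noggin arrays and by -0.33 on the mock arrays, and from day 2 to day 4 by 0.23 and -0.26. Each arm had 1 array a day, so the difference between arms was not tested. The probe lay near the array median of 7.37, and a second Col13a1 probe was dim on every array. No group had enough arrays for a check of single arrays that stand apart.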

How the results depend on the processing

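From day 0 to day 2, 12 chain probes were called. With probes kept above the 75th percentile on 2 or more arrays, 7 of the 9 chain probes left were called, beside 2768 of all 7759 left. That filter gave 6 in place of 12 from day 0 to day 4 and 3 in place of 7 from day 2 to day 4, where keeping probes above the array median gave 4. These filters also leave fewer probes to test. Leaving out 1 array gave 0 to 13, 0 to 10 and 0 to 5 calls in these contrasts. Between days 0 and 4, 5 probes were called without the Noggin array of day 4. Each such fit has 1 residual degree of freedom, and where it called 0 chain probes it called 0 of all 27495 probes too. For Noggin averaged over days, 0 chain probes were called under every setting run. At day 4 the genes 2-fold apart between Noggin and mock were 3, or 5 with normexp and an offset of 16, which added Col26a1 and Col13a1, and 2 with median scaling. No difference of a called gene reversed under any setting run. From day 2 to day 4, among settings that keep all arrays, Lama5 missed the threshold under 6 (limma adjusted p from 0.0503 to 0.142) and Col2a1 under 3. Between days 0 and 2, among the same settings, Col18a1 missed it under 3, and Lama5, Lamb2, Lamb3, Lamc1 and Col5a1 under 1 or 2. Lama5 also missed it without either array of day 4 (limma adjusted p = 0.0728). At day 4 the interstitial median of Noggin minus mock was -0.03 with the mean over all probes of a gene. Noggin and mock are matched by day through the day term of the model. No paired analysis by replicate number was possible because each group was 1 array.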
